A study of Mus musculus with 8 samples.

Results

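The Rab genes encode the main family of small GTPases that direct membrane traffic. They were taken as every gene of the deposited table whose symbol is Rab followed directly by a digit and at most 2 further digits or letters, which gave 58 of 24942 genes. A Rab protein switches between a GTP-bound form, which sits on a membrane and recruits effectors such as tethers and motor adaptors, and a GDP-bound form that is held in the cytosol. Each membrane carries its own Rabs, with Rab5 on early endosomes, Rab7 and Rab9 on late endosomes, Rab1, Rab2 and Rab6 along the route from endoplasmic reticulum to Golgi, and Rab3 on synaptic vesicles. NPC1 is the late endosomal and lysosomal membrane protein that exports cholesterol and whose loss causes Niemann-Pick disease type C. In cultured cells that lack it, extra Rab7 or Rab9 protein is known to reduce the cholesterol store.

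RNA was sequenced from 4 libraries of NPC1-deficient mice and 4 libraries of wildtype littermates. All carried the strain tag balb/cnctr-npc1m1n/j, all mice were 8 days old after birth, and the cells were retinal ganglion cells, the neurons whose axons form the optic nerve. They were caught from retina on antibody-coated plates and lysed on the plate, with no culture. The value of that tag contradicts the titles, reading wildtype for libraries numbered 1 and 2 and homozygous for those numbered 3 and 4, whatever the group. Groups follow titles and descriptions here, and the tag serves only to divide the libraries into sets. Whether a library is 1 animal or a pool is not stated, nor whether some are repeats of others. The 4 wildtype libraries were not all repeats of 1 sample, as their sum of 4 Y-linked genes ran from 45.6 to 3093. The p-values refer to spread among libraries, part of which may be technical.

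Reads assigned to the listed genes came to 33030175 to 44050118 per library. The normalized read count of Npc1 was 140, 70.05, 67.6 and 66.1 in the NPC1-deficient libraries and 707, 754, 831 and 857 in the wildtype libraries, a log2 fold change of -3.25 (SE 0.20, limma adjusted p = 3.23e-05). The loss was seen in every library titled NPC1-deficient. All 14 ganglion cell markers were detected, with summed counts of 428593 to 454715 in NPC1-deficient and 400785 to 427447 in wildtype libraries. Genes of other retinal cells were present too, and none of their markers passed the threshold. Most of them were nonetheless below 0, while 12 of the 14 ganglion cell markers were above it, at a median log2 fold change of 0.06. The 12 rod markers all had log2 fold changes below 0, with sums of 3589 to 4379 in NPC1-deficient and 5042 to 11037 in wildtype libraries, as had all 14 microglial markers, with sums of 1376 to 2919 in NPC1-deficient and 2511 to 12862 in wildtype libraries. Below 0 were also 7 of 8 amacrine markers (median -1.19), 7 of 7 bipolar markers (median -0.79) and all 5 tested glial markers (median -0.44). In RNA from many cells, fewer cells of a type and less RNA per cell cannot be told apart.

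Rab transcripts were at nearly the same level in both groups. The 58 genes together took 1.0996 ± 0.0143% of the reads assigned to listed genes in NPC1-deficient libraries. In wildtype libraries they took 1.0982 ± 0.0121% (SD, n = 4 each). Of 53 Rab genes with a mean normalized count of at least 10, none was higher and none was lower at a limma adjusted p under 0.05, where 0.104% of all 15386 genes tested passed. The other 5 fell below the filter. At an unadjusted p under 0.05 there were 4 Rab genes, 7.55% of those tested, beside 6.76% of all genes. The edgeR quasi-likelihood test also called none after adjustment, with 4 at an unadjusted p under 0.05. DESeq2 called 1, Rab3d, where it called 1.6% of all genes.

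The size of the differences was small across the family. The log2 fold change was above 0 for 30 Rab genes and below it for 23, and the median was 0.0065, beside 0.0050 over all genes tested. The median size without sign was 0.0394 for the Rab genes and 0.0694 over all genes tested, and 39 of the 53 lay within 0.1 of no change. The Rab genes are expressed above the average gene, with a median normalized count of 2752 beside 513 over all genes tested, and higher counts give smaller errors. The 95% confidence interval of the log2 fold change lay within 0.25 of no change for 36 Rab genes, within 0.5 for 46 and within 1 for 52, the exception being Rab20. Among the 46 with a mean of at least 100 the log2 fold changes ran from -0.12 to 0.34, and among the 7 below 100 from -1.14 to 0.36.

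**Figure D1:**
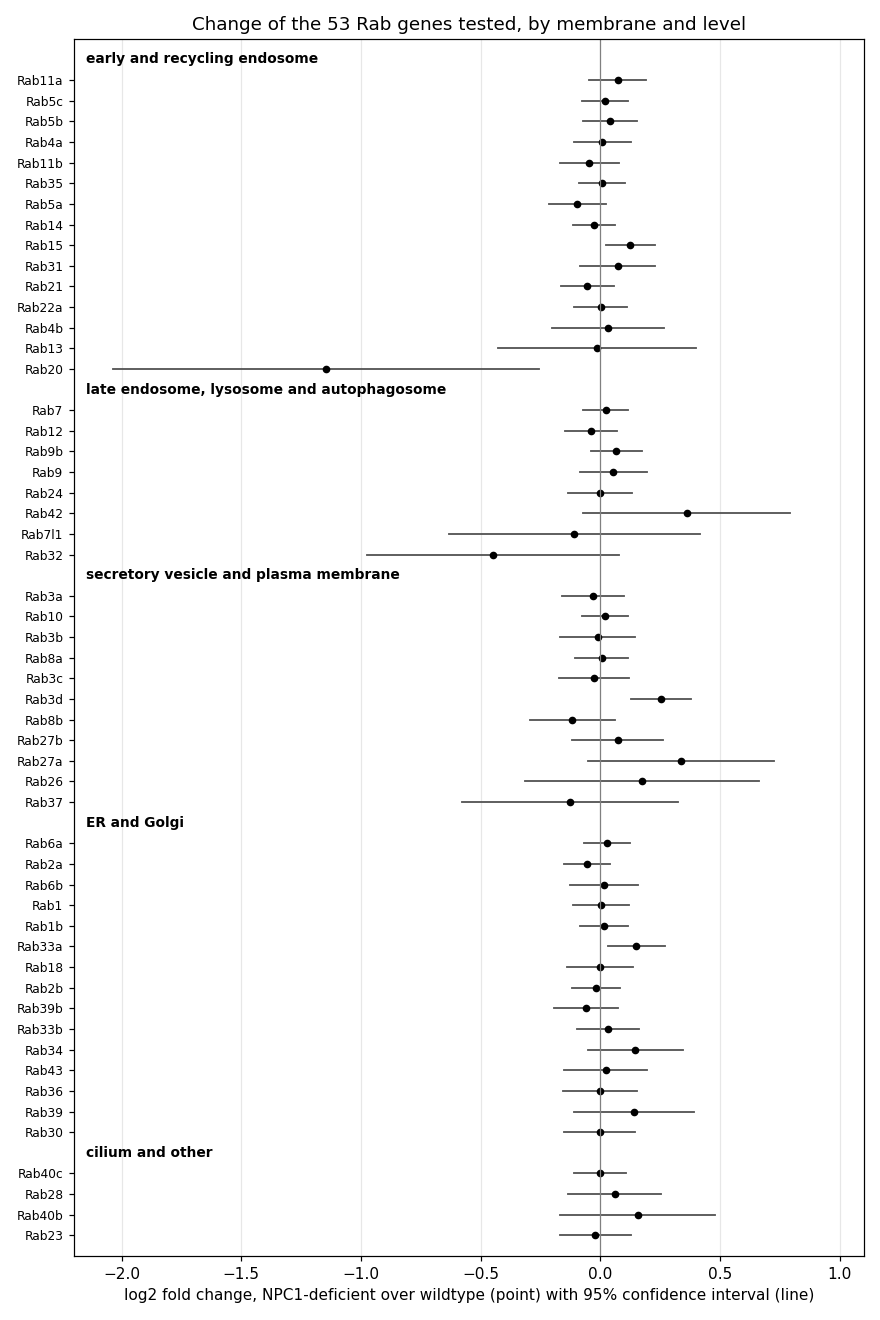
Log2 fold change (NPC1-deficient over wildtype, horizontal axis) of the 53 tested Rab genes grouped by the membrane they serve, with bars for 95% confidence intervals from limma. Most points lie within 0.1 of no change, Rab3d is at 0.25 with an interval from 0.13 to 0.38, and Rab20 is at -1.14 with the widest interval.

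A handful of Rab genes supplied most of the family's transcripts in this RNA, which also held transcripts of other retinal cells. Per kilobase of exon, Rab3a, the main Rab of synaptic vesicles, was the highest, at 17246 ± 1051 normalized reads per kilobase in NPC1-deficient and 17635 ± 1140 in wildtype libraries (SD, n = 4 each). Rab6a, a Rab of Golgi transport, followed at 14112 ± 251 in NPC1-deficient and 13827 ± 402 in wildtype libraries. These top 2 made up 25.2% of the summed level per kilobase of all Rab genes. Rab2a, which acts between endoplasmic reticulum and Golgi, stood at 12031 ± 312 in NPC1-deficient and 12500 ± 362 in wildtype libraries, and Rab6b, the form of Rab6 enriched in brain, at 11710 ± 838 in NPC1-deficient and 11583 ± 800 in wildtype libraries. Rab7 at 7431 ± 254 in NPC1-deficient and 7318 ± 159 in wildtype libraries and Rab1 at 7048 ± 273 in NPC1-deficient and 7038 ± 447 in wildtype libraries completed the top 6, which together held 56.0%. Along this order the library ranges of Rab2a and Rab6b overlapped in both groups, as did those of Rab7 and Rab1, and those of the other neighbours did not. The order depends on the length used, which was that of all annotated exons of a gene together. Before division by length, Rab6b had a mean of 58594 normalized reads over all libraries, above Rab6a at 52077. Some Rab6a reads may belong to Mrpl48, which covers 19% of its exons from the opposite strand, because the library kit leaves strand unmarked. Mrpl48 itself was counted at a mean of 2118 normalized reads in NPC1-deficient and 2085 in wildtype libraries.

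**Figure D2:**
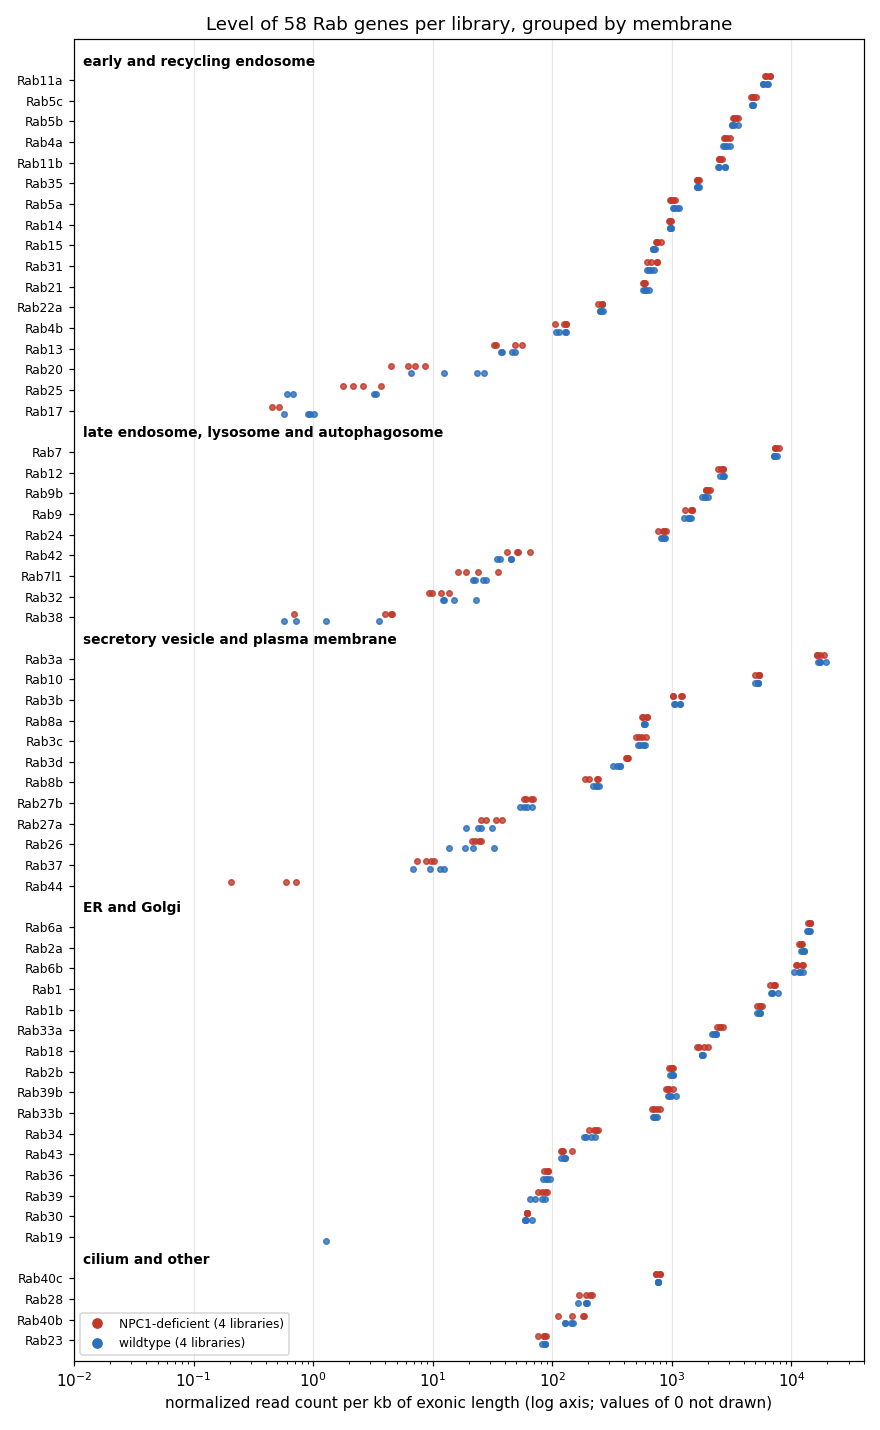
Level of each Rab gene in normalized reads per kilobase of exon (log axis), grouped by membrane, with NPC1-deficient above wildtype for each gene, and 1 point per library, values of 0 not drawn. The levels span from Rab3a at about 17246 per kilobase to genes at or near 0, and the groups lie on top of each other for nearly all genes.

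The early endosomal Rab5 genes, which drive fusion of incoming vesicles, showed no difference past the threshold in level, and their proportions were close. Rab5a (ENSMUSG00000017831, chromosome 17, 53479234 to 53507680, plus strand, mm10) had 5405, 5599, 5083 and 5136 normalized reads in NPC1-deficient libraries, against 6044, 5824, 5346 and 5473 in wildtype libraries. The groups overlapped, and its log2 fold change of -0.10 (SE 0.05, 95% interval -0.21 to 0.02, limma adjusted p = 0.873) was the most negative of the 3. Rab5b was at 0.04 (SE 0.05) and Rab5c at 0.02 (SE 0.04). Of the summed Rab5 level per kilobase, Rab5c made up 52.1 ± 1.57% in NPC1-deficient and 51.8 ± 0.793% in wildtype libraries, and Rab5b 37.0 ± 1.46% in NPC1-deficient and 36.3 ± 1.35% in wildtype libraries (SD, n = 4 each). Rab5a made up 11 ± 0.621% in NPC1-deficient and 11.8 ± 0.791% in wildtype libraries.

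Nor did any Rab of the late endosome, the compartment where NPC1 works, pass the threshold. Rab7 (ENSMUSG00000079477, chromosome 6, 87999106 to 88045270, minus strand), which brings late endosomes to lysosomes, had 20348, 19021, 19338 and 18875 normalized reads in NPC1-deficient libraries and 19148, 18801, 18786 and 19668 in wildtype libraries. The groups overlapped, with a log2 fold change of 0.02 and a 95% interval from -0.07 to 0.12. Rab9 (ENSMUSG00000079316, X chromosome, 166457253 to 166479867, minus strand), which returns mannose 6-phosphate receptors from late endosomes to the Golgi, had 2565, 2243, 2543 and 2572 in NPC1-deficient libraries and 2418, 2394, 2198 and 2544 in wildtype libraries. Its log2 difference was 0.05, with an interval from -0.08 to 0.19, and the low NPC1-deficient library 2 lay inside the wildtype range. Its paralog Rab9b was at 0.07, with an interval from -0.04 to 0.17. For these 3 genes, a change in transcript of more than 0.25 on the log2 scale in either direction falls outside the interval. Rab9 and Rab9b are X-linked, and the groups differed in sex-linked transcripts, as given below. The part of sex in the values of these 2 genes was not tested.

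The remaining members of this compartment had larger errors where their counts were low. Rab12, which sends transferrin receptor to lysosomes, was at -0.04 (SE 0.05), and Rab24, a Rab linked to autophagy, at -0.00 (SE 0.06). Prelid1 covers 62.4% of the exons of Rab24 from the opposite strand, so its reads are uncertain. Rab42 had 49.9, 32.0, 39.2 and 38.2 normalized reads in NPC1-deficient and 26.2, 34.3, 28.0 and 34.1 in wildtype libraries, a log2 fold change of 0.36 (SE 0.20, limma adjusted p = 0.862) with overlapping groups. Rab7l1, now named Rab29 and known for its tie to the Parkinson kinase LRRK2, was at -0.11 (SE 0.24). The 8 tested members of this compartment divided into 4 above and 4 below 0, with a median of 0.0096.

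Recycling Rabs did not pass the threshold either. Rab11a, the Rab of the slow recycling endosome, was at 0.07 (SE 0.05) and Rab11b at -0.05 (SE 0.06). Rab4a, of fast recycling, was at 0.01 (SE 0.05) and Rab4b at 0.03 (SE 0.11), and Gm21983 covers 65% of the exons of Rab4b on the same strand. Rab14, Rab21, Rab22a, Rab31, Rab35 and Rab13, which serve sorting between endosomes, Golgi and the cell surface, had log2 fold changes of -0.03, -0.05, 0.00, 0.07, 0.01 and -0.01. All of these genes had overlapping groups. Rab11a made up 71.5 ± 0.789% of the summed Rab11 level per kilobase in NPC1-deficient and 69.8 ± 1.85% in wildtype libraries (SD, n = 4 each).

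Rab3d gave the clearest difference in the family. It is a Rab3 of secretory granules (ENSMUSG00000019066, chromosome 9, 21907491 to 21918192, minus strand), and it had 1727, 1804, 1751 and 1759 normalized reads in NPC1-deficient libraries, against 1559, 1362, 1537 and 1452 in wildtype libraries. Every NPC1-deficient library lay above every wildtype library. The log2 difference of Rab3d was 0.25 (SE 0.06, 95% interval 0.13 to 0.38), or 1.19-fold, which missed the threshold in limma (adjusted p = 0.110) and in edgeR (adjusted p = 0.0970). DESeq2 on the recovered reads called it (adjusted p = 0.00843). The log2 difference was 0.28 in libraries 1 and 2 alone and 0.23 in libraries 3 and 4 alone.

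In absolute terms Rab3d stayed a minor Rab3. It made up 2.18 ± 0.143% of the summed Rab3 level per kilobase in NPC1-deficient and 1.8 ± 0.139% in wildtype libraries (SD, n = 4 each), and Rab3a made up 89.2 ± 0.853% in NPC1-deficient and 89.7 ± 0.577% in wildtype libraries. The other members Rab3a, Rab3b and Rab3c had log2 fold changes of -0.03 (SE 0.06), -0.01 (SE 0.07) and -0.03 (SE 0.07). The promoter of Rab3d is shown because it is the member with the smallest p. The first 270 bases of its RefSeq window (GRCm38.p6, chr9:21918164-21918433, minus strand, read 5′ to 3′ along the gene) hold 2 matches to the SP factor box CCCCGCCC, in capitals.
Rab3d: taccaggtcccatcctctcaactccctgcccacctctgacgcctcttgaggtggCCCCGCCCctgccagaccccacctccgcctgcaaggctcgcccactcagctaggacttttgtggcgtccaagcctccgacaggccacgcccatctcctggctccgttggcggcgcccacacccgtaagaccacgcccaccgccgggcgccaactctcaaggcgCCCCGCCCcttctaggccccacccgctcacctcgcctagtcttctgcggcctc
That box, searched on both strands, was in 35% of the 60 Rab windows of 300 bases, which belong to 48 of the 58 genes, and in 17.6% of all 32851 windows.

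Rab33a and Rab15 were the other tested members whose groups did not overlap. Rab33a (ENSMUSG00000031104, X chromosome, 48519285 to 48530232, plus strand), which is known for carrying membrane into growing axons, had 2736, 2898, 3099 and 2943 normalized reads in NPC1-deficient libraries and 2594, 2689, 2503 and 2725 in wildtype libraries. Its log2 difference was 0.15 (SE 0.05, limma adjusted p = 0.476). Rab15 (ENSMUSG00000021062, chromosome 12, 76797960 to 76822908, minus strand), a Rab of neuronal recycling endosomes, had 3427, 3726, 3485 and 3487 in NPC1-deficient libraries and 3301, 3196, 3272 and 3179 in wildtype libraries. Its log2 difference was 0.12 (SE 0.05, limma adjusted p = 0.529), so neither passed the threshold.

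Groups that did not overlap, with the NPC1-deficient libraries higher, were thus found for 3 of the 53 tested Rab genes, or 5.66%, beside 1.86% of all genes tested. With the NPC1-deficient libraries lower they were found for none of the tested Rab genes, beside 2.41% of all genes. The gap between the groups was narrow for Rab33a, with 2736 in the lowest NPC1-deficient and 2725 in the highest wildtype library. Rab33a is X-linked, as are Rab9, Rab9b and Rab39b, and in sex-linked transcripts the groups overlapped only through wildtype library 2. The sum of 4 Y-linked genes was 2597 to 3788 in NPC1-deficient libraries and 45.6, 3093, 1241 and 1508 in wildtype libraries 1 to 4. Xist was 0 to 68.1 in NPC1-deficient libraries and 595, 18.2, 238 and 164 in wildtype libraries 1 to 4. The part of sex in the values of these X-linked Rab genes was not tested.

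**Figure D3:**
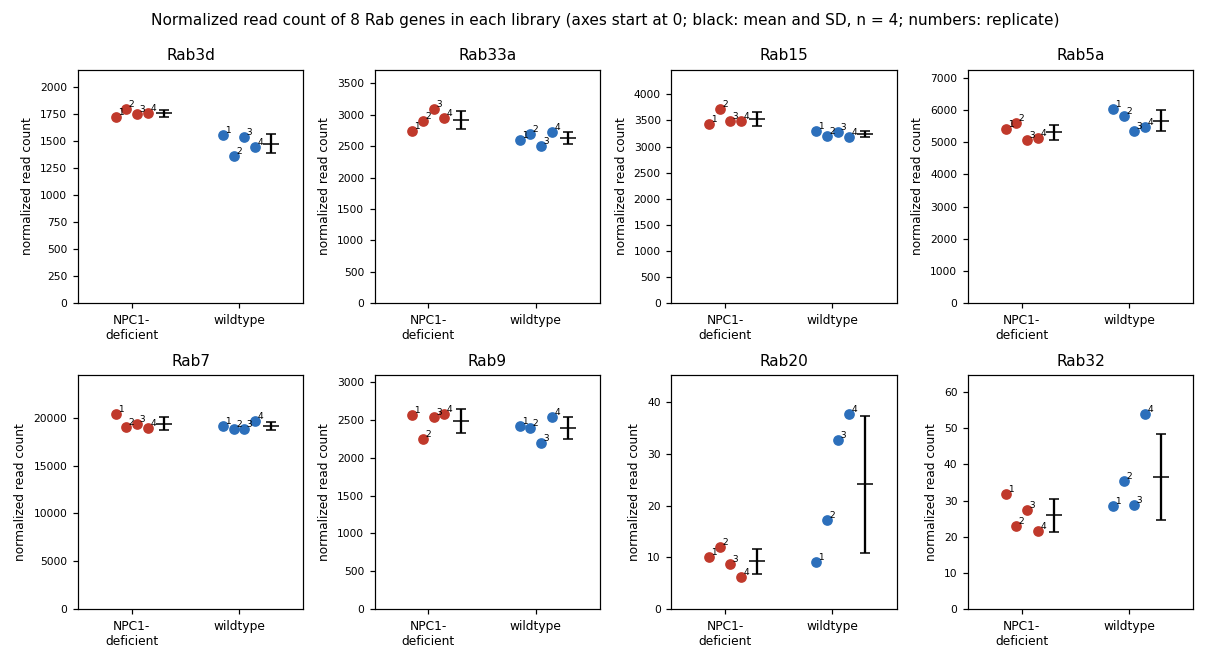
Normalized read count (vertical axis, linear) of 8 Rab genes in each library, NPC1-deficient on the left and wildtype on the right of each panel, with the mean and SD in black and the replicate number beside each point. The 4 NPC1-deficient points lie above the 4 wildtype points for Rab3d, Rab33a and Rab15, while those of Rab5a, Rab7 and Rab9 overlap.

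Among Golgi and secretory Rabs, further genes named for a small p also missed the threshold. Rab34, which helps place lysosomes and build cilia, was at 0.15 (SE 0.09) and Rab27a, which docks secretory and lysosome-related granules, at 0.34 (SE 0.18). Rab27a had 98.9, 132, 148 and 107 normalized reads in NPC1-deficient libraries and 92.3, 73.7, 122 and 97.8 in wildtype libraries, which overlap. On the negative side were Rab8b, of exocytosis, at -0.12 (SE 0.08), Rab2a at -0.06 (SE 0.04) and Rab39b, a gene of X-linked intellectual disability, at -0.06 (SE 0.06). The 15 tested members along the endoplasmic reticulum and Golgi had a median of 0.015, with 9 positive, and the 11 tested secretory members a median of 0.0065, with 6 positive.

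The lowest fold change in the family was that of Rab20, a Rab of the phagosome that is best known from macrophages (ENSMUSG00000031504, chromosome 8, 11453518 to 11478710, minus strand). It had 9.98, 12.01, 8.72 and 6.20 normalized reads in NPC1-deficient libraries, against 9.12, 17.2, 32.6 and 37.7 in wildtype libraries. Only wildtype library 1 lay within the NPC1-deficient range, and all counts were low, with 37 reads in all in NPC1-deficient and 102 in wildtype libraries. The log2 difference of Rab20 was -1.14 (SE 0.41, 95% interval -2.03 to -0.26, limma adjusted p = 0.462). In libraries 1 and 2 alone it was -0.18, and in libraries 3 and 4 alone -2.11, where it passed (limma adjusted p = 0.0205) in a fit with 2 libraries a group. That fit called 335 of 15386 genes tested, and 1 of the 53 Rab genes. The difference between the library sets did not pass (limma interaction adjusted p = 0.219).

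Rab32, which serves lysosome-related organelles and phagosomes, had 31.8, 23.0, 27.3 and 21.7 normalized reads in NPC1-deficient libraries and 28.5, 35.3, 28.9 and 53.8 in wildtype libraries. Its log2 difference was -0.45 (SE 0.24, limma adjusted p = 0.837), and without wildtype library 4 it was -0.25. Microglial markers and both genes were highest in wildtype library 4 and lowest in NPC1-deficient library 4, but the libraries between did not keep the same order. The summed count of the markers was 2919, 2583, 2600 and 1376 in NPC1-deficient libraries 1 to 4 and 2511, 8260, 6946 and 12862 in wildtype libraries 1 to 4. Wildtype library 1 was thus low and wildtype library 4 the highest, as for Rab20. Rab32 was 28.9 in the wildtype library with a marker sum of 6946. That is below the 31.8 of NPC1-deficient library 1, with a marker sum of 2919. The median log2 fold change of the 14 markers was -1.47, none of them passed the threshold, and none was at 0 in every library. Their part in the values of Rab20 and Rab32 was not tested. E230013L22Rik covers 25.6% of the exons of Rab20 from the opposite strand. Its own mean was 1.06 normalized reads in NPC1-deficient and 1.41 in wildtype libraries.

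**Figure D4:**
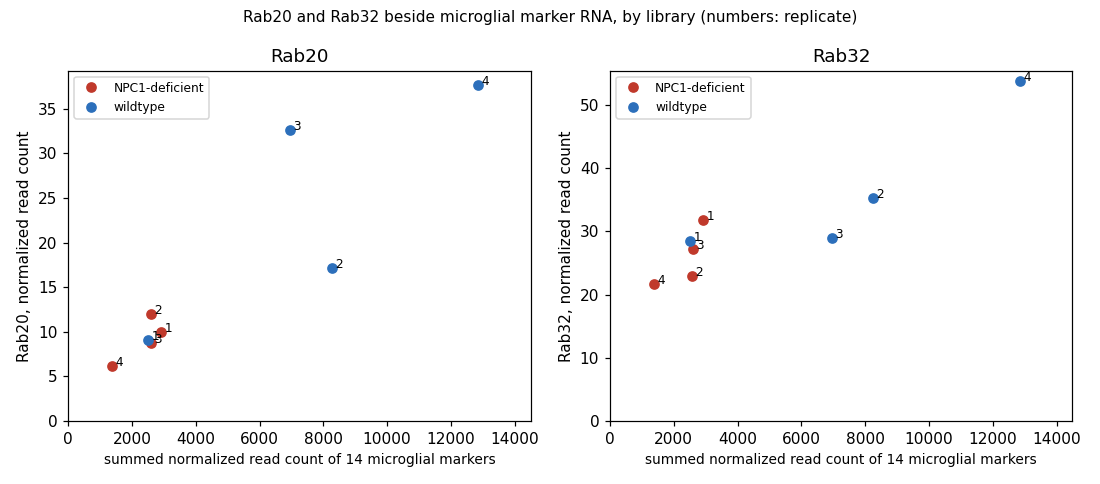
Normalized read count of Rab20 and of Rab32 (vertical axes) against the summed normalized count of 14 microglial markers (horizontal axes), with 1 point per library and colours for the groups. Wildtype libraries 2 to 4, with marker sums of 6946 to 12862, have the highest Rab20 counts, 17.2 to 37.7.

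The effect of genotype could also be compared between the library sets for each Rab. At an unadjusted p under 0.05 the interaction was found for 5 of 53 Rab genes, 9.43%, beside 13.4% of all genes, and none passed after adjustment. They are named because they are few, after their values were seen. Beside Rab20 they were Rab27b, at 0.27 in libraries 1 and 2 and -0.13 in libraries 3 and 4, Rab18, at -0.12 in libraries 1 and 2 and 0.11 in libraries 3 and 4, Rab6b, at 0.15 in libraries 1 and 2 and -0.12 in libraries 3 and 4, and Rab3b, at -0.13 in libraries 1 and 2 and 0.11 in libraries 3 and 4.

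The 5 Rab genes under the filter were close to the detection limit. Rab38, of melanosomes, had 22 reads over the NPC1-deficient and 10 over the wildtype libraries. Rab25, of epithelial recycling, had 17 in NPC1-deficient and 14 in wildtype libraries, and Rab44 had 8 in NPC1-deficient and 0 in wildtype libraries. Rab17, of epithelial transport, had 2 in NPC1-deficient and 7 in wildtype libraries, and Rab19 had 0 in NPC1-deficient and 2 in wildtype libraries. A count of 0 in a library allows up to 3 reads, a normalized value of 2.69 to 3.42, and this limit covers counting error only. In Rab17 the groups did not overlap, with 0 to 1.03 normalized reads in NPC1-deficient and 1.14 to 2.02 in wildtype libraries, all under that limit. The 1.03 of NPC1-deficient library 4 and the 1.14 of wildtype library 1 are each 1 read, and only the size factors set them apart. In a limma fit with no filter, none of the 5 passed after adjustment. Rab44 (adjusted p = 0.524) and Rab17 (adjusted p = 0.696) had an unadjusted p under 0.05.

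The machinery that loads, activates and reads Rab proteins was looked at in 6 lists with 130 tested genes. None passed the limma threshold, 3 had an unadjusted p under 0.05, beside the 6.76% of all genes that did, 61 were positive and 69 negative, and the median was -0.0090. The 9 genes that prenylate and deliver Rabs had a median of 0.019, the 32 activators, which load GTP, -0.017, and the 36 GTPase-activating proteins, which end the active state, -0.0005. The 35 endosomal and lysosomal effectors had a median of -0.026, the 11 secretory effectors 0.014 and the 7 Golgi effectors -0.079.

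Individual partners with the smallest p in each list were as follows. Tbc1d15, a GTPase-activating protein for Rab7, had 415 ± 21.4 normalized reads in NPC1-deficient and 488 ± 28.5 in wildtype libraries (SD, n = 4 each), with no overlap, and a log2 fold change of -0.23 (SE 0.08, limma adjusted p = 0.396). Golga5, a golgin that binds Rab1, was at -0.30 (SE 0.11, limma adjusted p = 0.499), and its Golgi neighbours Bicd2, which links Rab6 to dynein, and Golga2 were at -0.19 and -0.14. Among endosomal effectors, Eea1, the tether that Rab5 recruits, was at 0.43 (SE 0.24), Rilp, which links Rab7 to dynein, at 0.20 (SE 0.12), and Rilpl1 at -0.19 (SE 0.09). None of these passed the threshold.

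No activator or delivery factor passed either. Dennd4a, an activator of Rab10, was at -0.27 (SE 0.13), Rin2, an activator of Rab5, at -0.28 (SE 0.14), and Ankrd27, an activator of Rab21, at 0.27 (SE 0.14). The GTPase-activating protein relatives Tbc1d23 and Evi5 were at -0.10 and -0.16. Arl6ip5, Rabggta, a subunit of the enzyme that prenylates Rabs, and Chml, a Rab escort protein, were at 0.05, 0.04 and 0.18, and the Rab27 effectors Unc13d and Sytl3 at 0.28 and 0.21.

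Rims1, the active zone scaffold that binds Rab3, had the lowest p of all 6 lists. It had 1972, 2508, 4894 and 6424 normalized reads in NPC1-deficient libraries, against 11995, 10369, 16659 and 8351 in wildtype libraries, so every NPC1-deficient library was lower. Rims1 had a log2 difference of -1.70 with an SE of 0.32, and its limma adjusted p of 0.0679 missed the threshold, as in edgeR (adjusted p = 0.0684), while DESeq2 called it (adjusted p = 0.0230). In libraries 1 and 2 alone the difference was -2.33, and in libraries 3 and 4 alone -1.07. The NPC1-deficient libraries of the 2 sets stood apart, at 1972 and 2508 in libraries 1 and 2 and 4894 and 6424 in libraries 3 and 4. Amacrine markers moved with Rims1 by their geometric mean, and less closely by their summed count. The geometric mean of the 8 markers was 291, 339, 394 and 458 in NPC1-deficient libraries 1 to 4 and 871, 627, 872 and 549.7 in wildtype libraries 1 to 4, which puts the 8 libraries in the same order as Rims1. The summed count of these markers gave another order, with NPC1-deficient library 2 (30177) above wildtype library 4 (28787). The sums overlapped, at 26858 to 30177 in NPC1-deficient and 28787 to 34609 in wildtype libraries. No marker was at 0 in every library. The part of amacrine RNA in the Rims1 values was not tested.

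The Rab promoters were also read for the palindrome TCACGTGA, which is bound by TFEB and its relatives at lysosomal genes. It was found in 3 of the 60 Rab windows, 5%, and in 0.974% of all windows, and it contains the E-box CACGTG, which was in 10% of the Rab windows and 7.15% of all windows. Both strands were searched, and other motifs were looked at before these were chosen. These stretches are shown as the Rab promoters that hold it (GRCm38.p6, RefSeq windows, gene strand 5′ to 3′, palindrome in capitals, at chr17:53479078-53479205 on the plus strand, chr10:115315572-115315682 on the minus strand and chr13:55321961-55322039 on the minus strand).
Rab5a: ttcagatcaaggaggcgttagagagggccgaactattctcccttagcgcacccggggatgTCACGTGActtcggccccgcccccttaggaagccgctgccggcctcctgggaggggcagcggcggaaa
Rab21: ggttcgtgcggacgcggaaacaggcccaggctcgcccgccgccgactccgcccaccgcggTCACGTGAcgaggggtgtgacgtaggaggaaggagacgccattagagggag
Rab24: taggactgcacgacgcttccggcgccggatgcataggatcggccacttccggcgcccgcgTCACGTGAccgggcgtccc
The palindrome begins 96 bases before the start site in Rab5a, 31 before it in Rab21 and just past it in Rab24. The log2 fold changes of these genes were -0.10, -0.05 and -0.00, all with overlapping groups. The sterol regulatory element TCACCCCAC was in 1 Rab window, that of Rab3a, 1.67%, and in 0.551% of all windows. A match is a description of letters and not evidence of binding.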

How the data were processed

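Libraries were prepared with Illumina's TruSeq chemistry, which leaves strand unmarked, per the labels' protocols. The submitters' processing notes name mm10 as the build and list DESeq2 1.0.19, HTSeq 0.5.4p3 and CASAVA 1.8.2 with no roles. The aligner is not given in the sources used here, nor is the annotation. The authors' deposited values are a normalized signal, a read count over 1 size factor per library. All 199536 values gave whole reads within 1e-06 (100%) when that factor was undone, and edgeR and DESeq2 were run on those reads. Library pairs of a group gave a chi-square per degree of freedom between 4.27, for NPC1-deficient libraries 3 and 4, and 50.3. The next lowest was 7.61, for wildtype libraries 1 and 2. These values exceed counting error, but separate preparations of the same animals could also give them. They cannot decide whether some libraries are repeats, and each library was counted once.

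The test was limma 3.58.1 (R 4.3.3) on log2(value + 1), with a mean-variance trend and genotype alone, over the 15386 genes whose normalized mean reached 10, leaving out 9556. Adjustment was by Benjamini-Hochberg over all of them at 0.05. Fold changes on this scale understate those of low genes. Npc1 was also compared by exact permutation, two-sided, at p = 0.0286, the lowest that 70 assignments allow. Simulated data were used to check the fit. Genotype effects were compared between library sets by a limma interaction.

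Other settings tried were quantile scaling, upper-quartile scaling, pseudocounts of 0.5 and 5, a minimum of 50 or none, robust moderation, a term for library set, a replicate block, either set alone, omission of each library or of library 1 in both groups, edgeR 4.0.16 and DESeq2 1.42.0. GENCODE mouse release M21 gave lengths, overlaps and positions (24471 of 24942 identifiers, 98.1%), and RefSeq the promoter windows, from 250 bases before to 50 after a start. The Rab genes and the lists were chosen with earlier results of these data known. Named were Npc1, the 8 Rab genes of smallest p in each direction, all endosomal Rabs, the 6 highest per kilobase, those under the filter, and up to 3 genes a list by p.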

Additional observations from a re-analysis of the deposited data

Results flagged for a closer look

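In each group of 4 libraries, a library was picked out where its gap to the nearest other, as a share of the group's range, exceeded Dixon's 95% critical value. Over 108 groups (53 Rab genes and Npc1) 10 libraries met this, and chance picks about 1 group in 20. Npc1 was 140 in NPC1-deficient library 1, with 66.1 to 70.05 in the other NPC1-deficient libraries. Rab9, of late endosomes, was 2243 in NPC1-deficient library 2, with 2543 to 2572 in the others of its group. Rab43 was 812 in NPC1-deficient library 2, with 659 to 673 in the others, and Gm45140 covers 75.4% of its exons. Rab22a was 1745 in NPC1-deficient library 4, with 1865 to 1876 in the others. Rab10 was 17556 in NPC1-deficient library 1, with 18625 to 18827 in the others.

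Rab30, of the Golgi, was picked out in both groups. It was 596 in NPC1-deficient library 3, with 588 to 590 in the others, and 647 in wildtype library 4, with 572 to 578 in the others. The rule sets a gap against its own group's range. A small difference, such as that of NPC1-deficient library 3, can therefore meet it. Rab1 was 29274 in wildtype library 4, with 25665 to 26026 in the others. Rab28 was 743 in wildtype library 2, with 873 to 889 in the others, and Rab23 was 682 in wildtype library 1, with 713 to 714 in the others.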

How the results depend on the processing

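No Rab gene passed in 20 of the 22 alternatives run. DESeq2 called 1 higher, Rab3d, and libraries 3 and 4 alone gave 1 lower, Rab20 at -2.11. The log2 fold change of Rab3d ran from 0.22 to 0.29 and its adjusted p from 0.00843 to 0.304. The median of the Rab genes moved by less than the spread between libraries in every setting. The sign of the log2 fold change was not the same in every setting for most tested Rab genes. Rab7, for example, ran from -0.009 to 0.052 and Rab9 from -0.004 to 0.113. The number of all genes past the threshold was 16, and it was 246 with DESeq2, 57 in libraries 1 and 2 alone, 335 in libraries 3 and 4 alone, 99 with the library set as a term, 10 at a minimum of 50, 34 with the replicate block and 170 without library 1 of both groups. Leaving out 1 library gave 2 to 144 genes. It was 144 without wildtype 1, 35 without wildtype 4, 33 without NPC1-deficient 4, 26 without NPC1-deficient 1, 5 without wildtype 3, 4 without wildtype 2 and 4 without NPC1-deficient 2, and 2 without NPC1-deficient 3, and the cause was not tested. Libraries of the same number did not deviate together, and with the replicate block Rab3d had an adjusted p of 0.186 and no Rab gene passed. Counts below 100 limit what can be seen for Rab20, Rab32 and Rab42.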
